A study of Mus musculus with 3 samples.

Results

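Ribosome biogenesis and RNA polymerase I are represented here by 42 mouse genes, picked by gene symbol out of 50600 genes in the deposited tables. The rule uses no measured value, although the set was drawn up with earlier results of these data known. All 42 symbols were found, each as 1 protein-coding gene, and 21764 of the 50600 genes are protein-coding. They were read in 3 RNA-seq libraries of primary T cells from C57BL/6NJ mice, which form 1 group and are numbered as biological replicates 2, 3 and 4. No treated, mutant or later group was analysed here, so the data give the level of each gene, how the subunits of each complex stand to one another, and how the replicates differ. Age and sex are not given. Each library has a biosample of its own, but all share 1 donor identifier, so the labels do not settle whether 3 animals were used. P-values below rest on these libraries alone, and some of the differences among them may be technical. The assay is titled total RNA-seq although its library protocol is one for poly(A) RNA, and a protocol for differentiating CD4+ T cells is attached. In the file headers, the alignments are named Th0 and activated, with a time of 0 h.

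Ribosomes are built in the nucleolus. RNA polymerase I copies the ribosomal DNA into a long precursor RNA, small nucleolar RNA-protein particles (snoRNPs) modify its bases and riboses, and large assemblies fold and cut it into the RNAs of the small and the large ribosomal subunit. A resting T cell makes few ribosomes, and activation through the antigen receptor raises the production of rRNA and of the proteins that process it before the cell divides. The precursor rRNA itself is not measured by these genes, which are all transcribed by RNA polymerase II.

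Replicates 2, 3 and 4 held 47432940, 59698913 and 28340521 counted read pairs. The defining T cell markers Cd3e, Cd3g, Trac, Lck and Cd4 were all present, with a summed level of 6981 to 7155 TPM. TPM are transcript levels, counts divided by the length of a gene's merged exons and scaled to the same total in each library, and every level below is on this scale unless another length is named. Of the 2 CD8 T cell markers, Cd8a was at 0.534 TPM on average and Cd8b1 at 33.6 TPM, close to the median of detected protein-coding genes, and together they summed to 31.2 to 36.8 TPM. The 4 B cell markers summed to 22.6 to 31.4 TPM, the 4 macrophage and neutrophil markers to 1.82 to 3.18 TPM, the 3 erythroid markers to 1.05 to 4.14 TPM and the 5 markers of dividing cells to 9.07 to 13.0 TPM. In a bulk sample, fewer cells that express a gene and less RNA of it per cell cannot be told apart.

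All 42 genes were detected at 1 TPM or more in every library, against 46.1% of protein-coding genes (10030 of 21764). Together they took 0.441%, 0.445% and 0.450% of counts in replicates 2, 3 and 4, a mean of 0.445% ± 0.00454 (SD, n = 3). Even the gene with the fewest counts, Nop16, had 898, 1143 and 520 in replicates 2, 3 and 4, and the gene with the most, Ncl, had 21450, 27524 and 12921. Their median level was 78.0, 81.1 and 82.5 TPM in the 3 libraries, against a median of 34.0, 33.5 and 32.4 TPM for the detected protein-coding genes. Of the 42, 37 lay at or above the middle of the detected protein-coding genes, 22 at or above their 75th percentile and 6 at or above their 90th. Those 6 were Npm1, Rrp1, Ddx21, Mybbp1a, Imp3 and Bop1.

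The range within the group was wide. Mean levels ran from 12.1 TPM for Wdr12 to 481 TPM for Npm1, with a median of 81.6 TPM, against a median of 33.4 TPM over the detected protein-coding genes. The spread among replicates was small beside this range: the coefficient of variation (SD over mean) was between 0.288% for Heatr1 and 11.9% for Nhp2, with a median of 3.23%. Gene length matters for the order of the levels. The merged exons count every base of every annotated transcript, whether the cells use it or not, and for 12 of the 42 genes they were more than 1.5 times as long as the shortest principal protein-coding transcript. Levels were therefore also computed with that principal length and with its coding length. Only the length changed, and the counts stayed those over all merged exons. The coding length therefore raises genes whose exons lie mostly outside the coding part, relative to the others. The median of the 42 mean levels then became 58.8 TPM with the principal length and 53.0 TPM with the coding length, against 32.8 and 35.0 TPM for the detected protein-coding genes, and 35 of 42 lay above the median of those genes with the principal length. The genes at or above the 90th percentile also changed with the principal length. Ddx21, Imp3 and Bop1 fell to percentiles 88.2, 85.9 and 84.9, and Ubtf and Nop56 rose to 93.7 and 92.0. Npm1, Rrp1 and Mybbp1a stayed above the 90th.

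**Figure D1:**
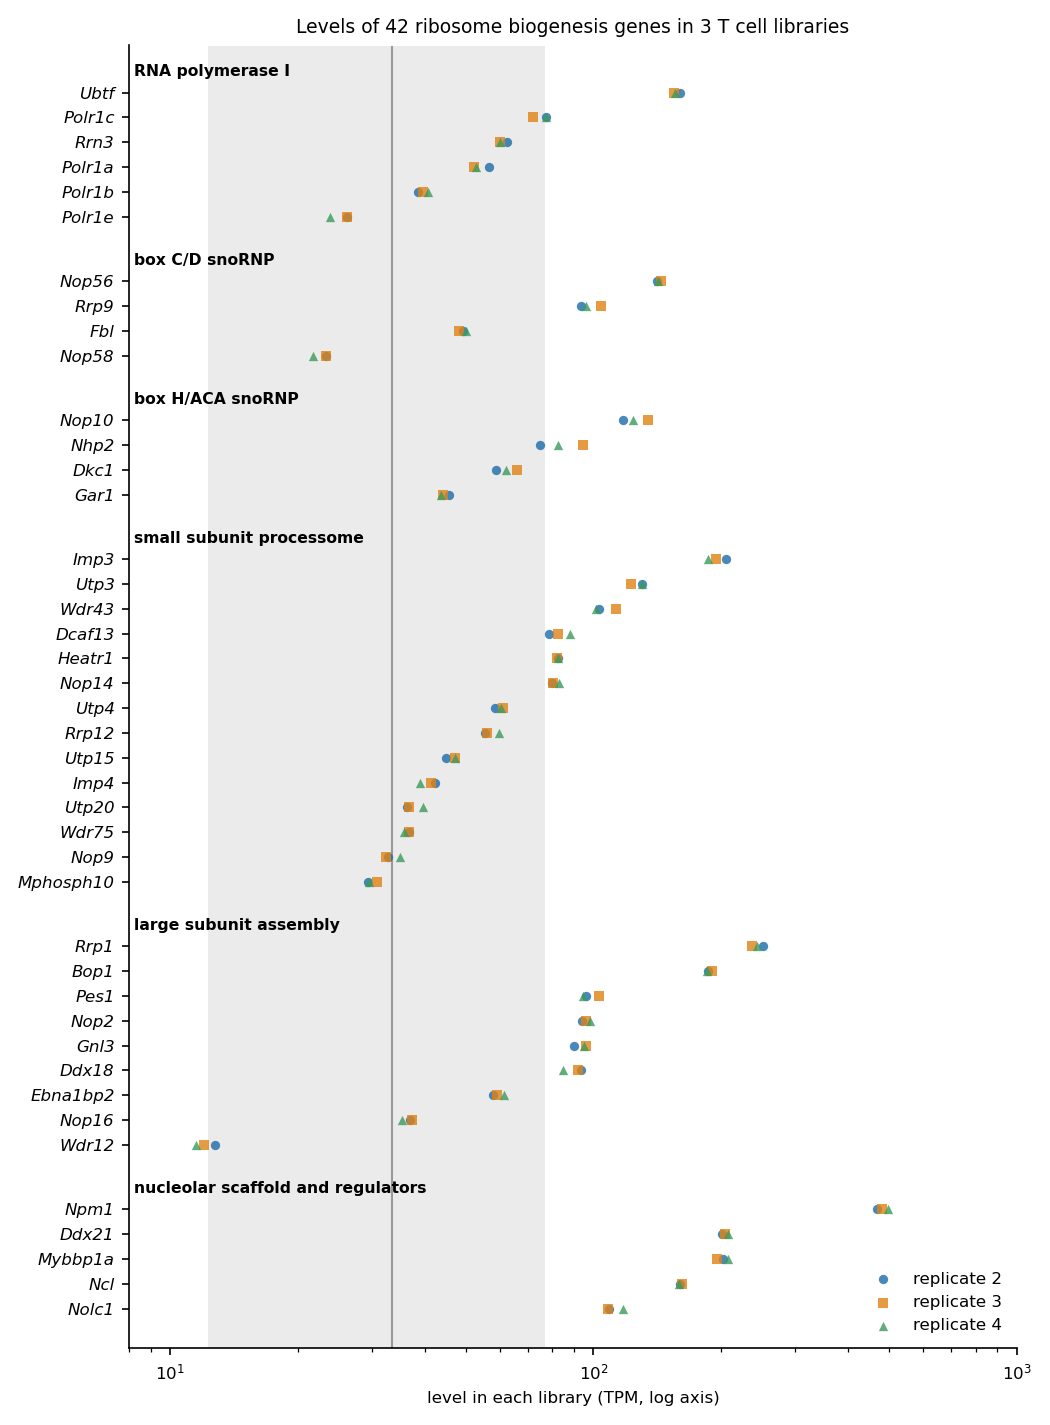
Level of each of the 42 genes in each library (TPM, log axis), grouped by role and ordered by mean within a role. Circles are replicate 2, squares replicate 3 and triangles replicate 4. The grey band runs from the 25th to the 75th percentile of the detected protein-coding genes, from 12.4 to 76.6 TPM, and the line their median of 33.4 TPM. The replicates lie close together while the genes run from 12.1 TPM (Wdr12) to 481 TPM (Npm1).

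The RNA polymerase I machinery was present at moderate levels, with a median of 57.4 TPM over 6 genes. Polr1a (chromosome 6, 71909053 to 71984935, plus strand, mm10, as are all gene positions here) encodes the largest subunit, which forms the catalytic centre together with the second largest, the product of Polr1b. Polr1a stood at 56.7, 52.2 and 52.8 TPM in replicates 2, 3 and 4 and Polr1b at 38.5, 39.6 and 40.7 TPM, so the 2 did not overlap. Polr1c encodes an assembly subunit that RNA polymerases I and III share, and was the highest of the 4 core genes at 77.3, 71.8 and 77.4 TPM. The lowest was Polr1e, which encodes a subunit particular to RNA polymerase I that helps it start and elongate, at 26.2, 26.2 and 23.9 TPM. Polr1c exceeded Polr1e by 1.57 ± 0.12 (SD, n = 3) as a difference of log2(TPM + 0.1), a ratio of pooled, length-corrected counts of 2.91 with a 95% exact interval from 2.80 to 3.03. Intervals of this kind cover counting error only.

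Both initiation factors were higher than Polr1e and Polr1b. Ubtf (chromosome 11, 102304560 to 102319742, minus strand) encodes UBF, the HMG-box protein that coats active ribosomal DNA, and stood at 160, 155 and 156 TPM. Rrn3 encodes the factor that joins RNA polymerase I to its promoter complex and is a known target of growth signals. Its level was 62.6, 60.3 and 60.01 TPM, below every Ubtf value. The difference of Ubtf over Rrn3 was 1.37 ± 0.01 on the log2(TPM + 0.1) scale, the steadiest of all pairs compared here. It was 2.61 with the principal length and 2.01 with the coding length, since the annotated principal Ubtf transcript spans 2759 bases of 6552 merged exon bases. Ubtf itself was at 237 TPM and Rrn3 at 38.9 TPM with the principal length.

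All 33 pairs compared kept 1 direction in 3 of 3 libraries. They are pairs of subunits within complexes, with Ubtf and Rrn3, and Npm1 and Ncl, added. The exact two-sided sign-flip permutation test gave p = 0.25 for each, and 3 libraries allow no smaller p. In that permutation test the exact p stayed at 0.25 after Benjamini-Hochberg adjustment over the 33 pairs. No pair could therefore pass 0.05, and the directions stand as descriptions. The order was the same with all 3 lengths for 27 pairs and not for the other 6. Polr1b over Polr1e was one of the 6: the difference was 0.64 with merged exons, 0.79 with the principal length and -0.17 with the coding length.

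The box C/D snoRNP, which methylates riboses of rRNA, includes Nop58, the gene of the 42 whose level changed by the largest factor between merged exons and the principal length. Its core proteins are the methyltransferase fibrillarin, encoded by Fbl, and the paired scaffold proteins encoded by Nop56 and Nop58. With merged exons, Nop56 stood at 141, 144 and 142 TPM, Fbl at 49.1, 48.0 and 49.9 TPM and Nop58 at 23.4, 23.3 and 21.7 TPM. The 3 genes were thus separate in every library, with Nop56 over Nop58 at 2.64 ± 0.06 on the log2 scale and a pooled ratio of 6.21 (6.06 to 6.36). With the principal length the same counts gave 198 TPM for Nop56, 110 TPM for Fbl and 91.1 TPM for Nop58, and Nop56 over Nop58 shrank to 1.12. The coding length gave 0.87. Nop58 (chromosome 1, 59684971 to 59719044, plus strand) has 10758 merged exon bases and a principal transcript of 1713 bases, the highest ratio in the set at 6.28. Among the 42 genes its rank by level was 41 with merged exons and 13 with the principal length. Fbl ranked 30 and 11 in the same way. The order Nop56, Fbl, Nop58 held with all 3 lengths, although Fbl over Nop58 was 1.10 with merged exons and 0.27 and 0.19 with the principal and the coding length. Rrp9, the protein of the U3 snoRNP that marks it off from other box C/D particles, was at 93.4, 104 and 96.3 TPM. Fbl has 2 annotated near-identical pseudogene copies, whose counts came to 2.49% of those of Fbl. The counting used no option for pairs that map to several places. This share therefore does not show how many pairs that fit both were lost.

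The box H/ACA snoRNP, which converts uridine to pseudouridine and also holds the telomerase RNA, includes the gene that differed most among libraries, Nhp2. Dkc1 (X chromosome, 75095854 to 75109777, plus strand) encodes dyskerin, the pseudouridine synthase, and stood at 58.7, 66.0 and 62.1 TPM. Nop10, a small protein that binds dyskerin, was at 118, 135 and 124 TPM, and Nhp2, which binds the RNA with Nop10, at 74.8, 94.5 and 82.4 TPM. All 3 were lowest in replicate 2 and highest in replicate 3. Nop56, Rrp9, Utp4, Mphosph10 and Gnl3 were too, so this is not particular to the box H/ACA genes. Gar1, which helps load and release the substrate RNA, was at 45.5, 44.2 and 43.5 TPM, with its highest value in replicate 2. Nop10 exceeded Gar1 by 1.49 ± 0.12 on the log2(TPM + 0.1) scale, by 1.06 with the principal length and by 2.72 with the coding length. Nhp2 over Dkc1 was 0.42 ± 0.09 with merged exons, and 0.01 with the principal length, where 1 of 3 libraries had Nhp2 higher.

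**Figure D2:**
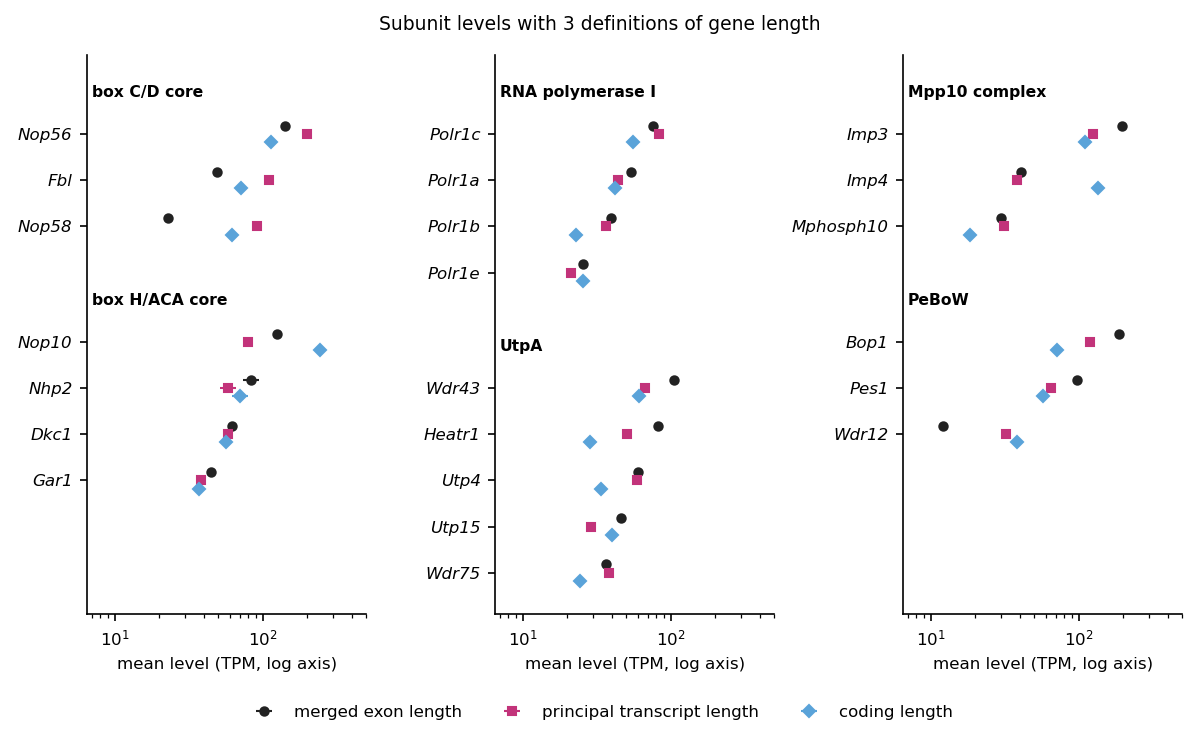
Mean level of the subunits of 6 complexes (TPM, log axis) with 3 definitions of gene length: merged exons (circles), the shortest principal transcript (squares) and its coding part (diamonds). Points are means and bars SDs of 3 libraries, most of them narrower than the point. Nop58 lies at 91.1 TPM with the principal length and 22.8 TPM with merged exons, and Wdr12 at 32.3 and 12.1 TPM, while the 3 points of Gar1 lie between 37.2 and 44.4 TPM.

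Many snoRNAs are cut from introns of genes for nucleolar proteins, and some of these genes are such hosts. Of the 42 genes, 6 (14.3%) held an annotated snoRNA gene on their own strand, against 199 of the 10030 detected protein-coding genes (1.98%). Nop56 held 5 such genes, Nop58 4, Wdr43, Gnl3 and Ncl 3 each and Dkc1 1, or 19 in all. Of the 19, 10 had at least 1 count, and none of those 10 overlapped a host exon. Among the 9 with no count, 7 had at least 70% of their bases in exons of the host, where pairs that touch both genes were not assigned to either under the counting options in the file headers. The other 2, Snord92 in Wdr43 and Snord82 in Ncl, lay outside host exons and still had 0 counts. Counts were small throughout, and reads from the mature snoRNA and from the host's unspliced intron cannot be told apart. Snord53 in Wdr43 had 63, 55 and 19 counts in replicates 2, 3 and 4, Snord69 in Gnl3 52, 47 and 31, and Gm22858 in Wdr43 21, 25 and 10. The next 4 sequences, from introns of 4 hosts, show what a box C/D guide looks like. They are written as DNA from the mm10 genome at the GENCODE M21 positions, 5′ to 3′ on the strand of the gene. Capitals mark the box C letters TGATGA near the start and the box D letters CTGA near the end, around which fibrillarin, NOP56 and NOP58 assemble.
Snord69, in Gnl3, chr14:31014287-31014366, minus strand: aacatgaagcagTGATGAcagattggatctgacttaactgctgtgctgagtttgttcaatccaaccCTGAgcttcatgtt
Gm22858, in Wdr43, chr17:71641584-71641659, plus strand: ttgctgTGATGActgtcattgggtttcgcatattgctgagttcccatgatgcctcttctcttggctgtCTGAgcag
Gm26287, in Nop58, chr1:59704258-59704338, plus strand: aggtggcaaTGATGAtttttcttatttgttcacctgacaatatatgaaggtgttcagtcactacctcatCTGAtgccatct
Snord110, in Nop56, chr2:130275506-130275573, plus strand: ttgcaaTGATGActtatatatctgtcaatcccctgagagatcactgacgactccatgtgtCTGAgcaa
Gm26287 had 11, 9 and 0 counts and Snord110 4, 7 and 1, beside at least 1863 counts in each library for Nop58 and at least 4640 for Nop56.

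The small subunit processome is the first large assembly on the precursor rRNA, and its 14 genes had a median of 58.5 TPM. UtpA is the module that binds the nascent transcript first, and some of its proteins are also needed for RNA polymerase I transcription. Its 5 genes formed a ladder. Wdr43 was at 103, 113 and 102 TPM, Heatr1 at 82.3, 82.2 and 82.6 TPM, Utp4 at 58.4, 61.0 and 60.3 TPM, Utp15 at 44.9, 47.1 and 47.1 TPM and Wdr75 at 36.7, 36.7 and 35.8 TPM. No neighbours on the ladder overlapped, and Wdr43 over Wdr75 came to 1.54 ± 0.07 on the log2(TPM + 0.1) scale. Wdr43 was the highest and stayed so with all 3 lengths, but the steps below it did not hold. Heatr1 over Utp4 was 0.46 with merged exons, -0.22 with the principal length and -0.26 with the coding length. Utp15 over Wdr75 was 0.35 with merged exons, -0.40 with the principal length and 0.73 with the coding length. Against Utp15, Heatr1 stood 0.83 higher and Utp4 0.37 higher with merged exons, and -0.51 and -0.24 with the coding length.

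The Mpp10 complex joins the U3 snoRNA to the precursor and has 3 subunits. Imp3 (chromosome 9, 56937475 to 56938398, plus strand), a short gene of 924 exon bases, stood at 206, 195 and 187 TPM. Imp4 was at 42.2, 41.4 and 39.0 TPM and Mphosph10, which encodes the scaffold protein MPP10, at 29.3, 30.9 and 29.4 TPM. Imp3 was above both partners in every library, by 2.71 ± 0.09 over Mphosph10 and by 2.26 ± 0.03 over Imp4. Its lead over Mphosph10 was 1.99 with the principal and 2.59 with the coding length, whereas its lead over Imp4 was 1.71 with the principal length and turned to -0.29 with the coding length. The coding length put Imp4 at 135 TPM and Imp3 at 111 TPM. Imp4 has 873 coding bases in a principal transcript of 5836 bases, and its counts cover all exons.

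The other 6 processome genes spanned 33.3 to 128 TPM. Utp3, whose yeast counterpart is Sas10, was at 130, 123 and 130 TPM, Dcaf13, the counterpart of yeast Sof1, at 78.7, 82.6 and 88.2 TPM, and Nop14 at 79.8, 80.1 and 82.9 TPM. Rrp12, which in yeast acts in the maturation and export of both subunits, was at 55.4, 56.0 and 59.9 TPM. Utp20, a very large repeat protein, stood at 36.4, 36.8 and 39.5 TPM, and Nop9, an RNA-binding repeat protein, at 32.7, 32.3 and 35.0 TPM. Replicate 4 held the highest value of Dcaf13, Nop14, Rrp12, Utp20 and Nop9. Utp3 was at 130.35 TPM in replicate 2 and 130.2 TPM in replicate 4. Over all 42 genes, replicate 4 was highest for 16, replicate 3 for 15 and replicate 2 for 11. The like count over all genes tested was not made. In the edgeR test described below, the unadjusted p of these 6 genes ran from 0.423 (Dcaf13) to 0.800 (Nop14).

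Genes of large subunit assembly had a median of 93.6 TPM over 9 genes. Pes1, Bop1 and Wdr12 encode the PeBoW complex, needed to process the precursor of the large subunit RNAs. Bop1 stood at 186, 190 and 185 TPM, Pes1 at 95.9, 103 and 94.7 TPM and Wdr12 at 12.8, 12.01 and 11.5 TPM. The gap of Bop1 over Wdr12 was the largest of the 33 pairs, 3.94 ± 0.07 on the log2 scale with a pooled ratio of 15.4 (15.0 to 15.9). Its size depended on the length used. Wdr12 (chromosome 1, 60069785 to 60098645, minus strand) has 11955 merged exon bases, the most of the 42 genes, and a principal transcript of 2850 bases. With the principal length Wdr12 was at 32.3 TPM, Pes1 at 64.6 TPM and Bop1 at 118 TPM, and the gap of Bop1 over Wdr12 was 1.87. It was 0.89 with the coding length, with the same order of the 3 genes throughout.

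Rrp1, whose yeast counterpart acts early in large subunit assembly, was the second highest of all 42 genes at 252, 237 and 244 TPM. Nop2, an rRNA cytosine methyltransferase, was at 94.2, 95.9 and 98.3 TPM. Gnl3 encodes nucleostemin, a nucleolar GTP-binding protein first known from stem cells, and stood at 90.1, 95.9 and 94.8 TPM. The helicase gene Ddx18 was at 93.3, 92.0 and 84.8 TPM, with its lowest value in replicate 4. Ebna1bp2, the counterpart of yeast Ebp2, was at 57.9, 59.0 and 61.6 TPM, and Nop16 at 37.0, 37.2 and 35.3 TPM. Of these 6 genes, Nop16 was the lowest and Rrp1 the highest in each library.

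The 5 genes of the nucleolar scaffold and its regulators were the most abundant set, at 111 to 481 TPM. Npm1 (chromosome 11, 33152287 to 33163206, minus strand) encodes nucleophosmin, which forms the outer granular phase of the nucleolus, and was the highest of all 42 at 469, 480 and 495 TPM. The 8 annotated near-identical pseudogene copies of Npm1 together had 295 counts, 0.611% of those of Npm1. Of the 42 genes, 13 had such a copy. Among them was Ddx18, whose 2 copies had 93 counts, 1.09% of those of Ddx18. As for Fbl, these shares do not show how many pairs that fit both were lost. Ncl encodes nucleolin, which binds ribosomal DNA chromatin and precursor rRNA, and stood at 160, 162 and 159 TPM. Npm1 exceeded Ncl by 1.58 ± 0.05 on the log2(TPM + 0.1) scale, by 1.98 with the principal length and by 0.93 with the coding length, which put Ncl at 260 TPM. Ddx21, a helicase that links RNA polymerase I transcription to rRNA processing, was at 201, 204 and 208 TPM. Mybbp1a, a nucleolar protein named for binding the factor Myb, was at 203, 196 and 208 TPM, and the 2 genes overlapped. Nolc1 encodes Nopp140, a chaperone of snoRNPs, and was at 109, 108 and 117 TPM.

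None of the 42 genes was called as varying among the libraries beyond the spread of genes of like abundance. In edgeR's goodness of fit test with Benjamini-Hochberg adjustment over 13498 genes, 0 of 42 passed an adjusted p of 0.05, against a background of 0.533% (72 genes), and 0 of 42 against 554 genes (4.10%) had an unadjusted p under 0.05. With a background this low, a count of 0 among 42 genes does not set them apart. The smallest p of the set was that of Nhp2, 0.128 unadjusted and 1.00 after adjustment in the same edgeR test. Nhp2 (chromosome 11, 51619735 to 51623714, plus strand) had 1128, 1803 and 753 counts, and its log2 CPM (counts scaled by library size) differed by 0.36 between replicate 3, the highest, and replicate 2, the lowest. The corresponding range was under 0.2 for 39 of the 42 genes, Nop10 at 0.21 and Dcaf13 at 0.22 being the other two. Its median was 0.105 over the 42 genes, against 0.188 over the genes tested and 0.121 over the 7321 detected protein-coding genes within the same span of levels. The narrowest ranges were those of Gar1 and Wdr75, at 0.02 each.

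**Figure D3:**
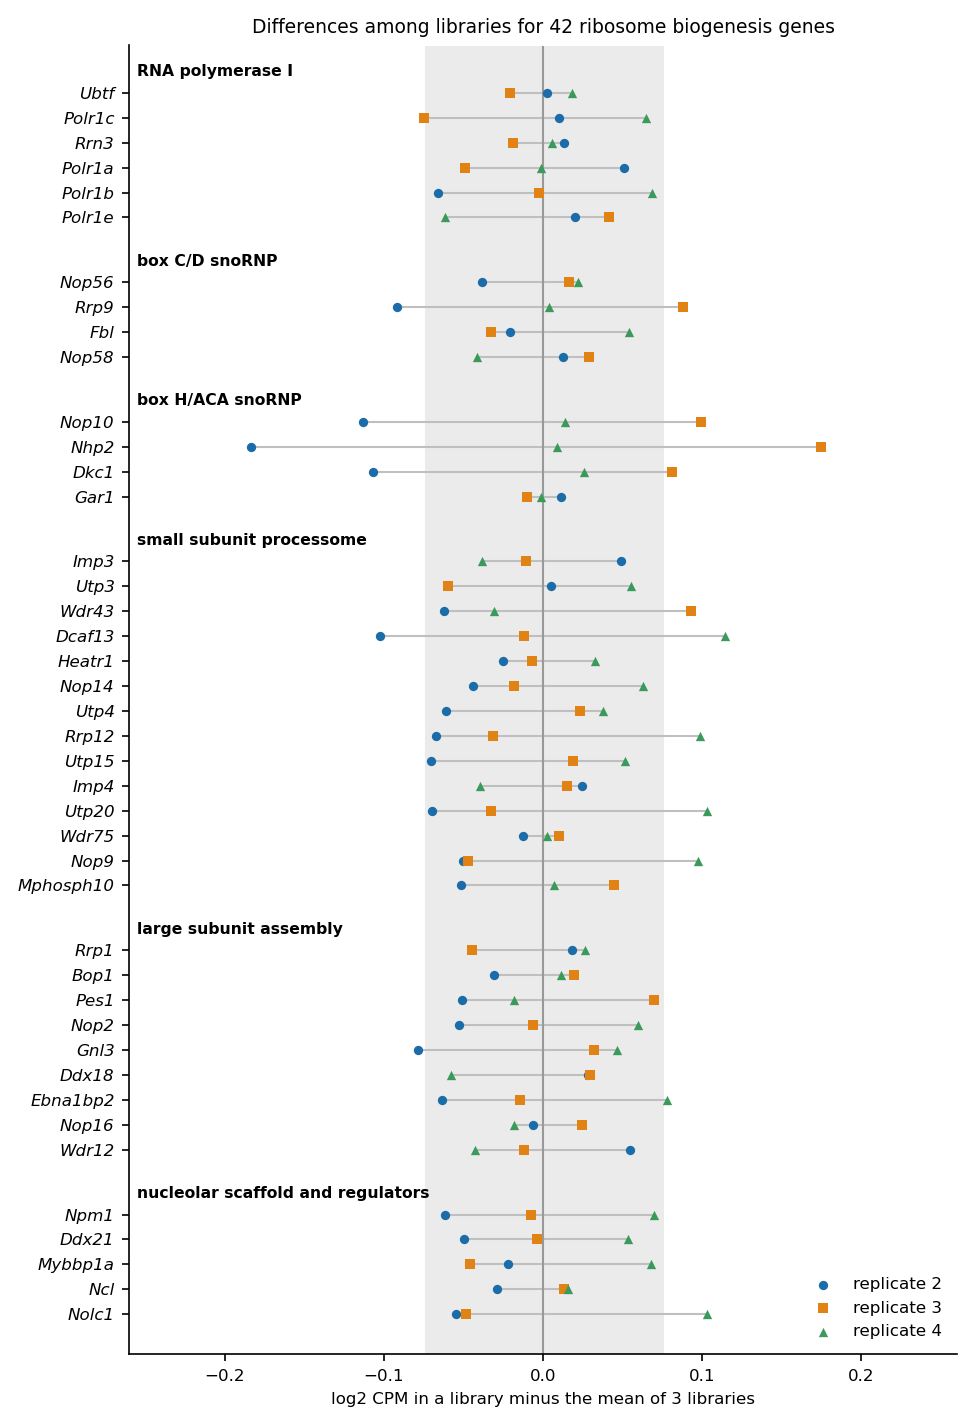
Difference of log2 CPM (TMM scaling) in each library from the mean of the 3 libraries, for each of the 42 genes. The grey band runs from the lowest 25th to the highest 75th percentile of such differences over the genes tested in any of the 3 libraries. Nhp2 has the widest spread, 0.36, while Gar1 and Wdr75 span 0.02. Nop10, Nhp2 and Dkc1 share the order of the libraries with Rrp9, Mphosph10, Wdr43, Wdr75, Pes1 and Bop1.

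The median displacement of the 42 genes among the replicates was small. After TMM scaling, 31 of 42 genes lay above their own mean in replicate 4, 19 in replicate 3 and 13 in replicate 2. The like count over all genes tested was not made. The median difference of the 42 from that mean was 0.02 in replicate 4, -0.01 in replicate 3 and -0.04 in replicate 2 on the log2 scale, where the median of all genes tested was at 0.00 in each. All 3 medians of the 42 lay between the 25th and 75th percentiles of all genes tested. Those percentiles were -0.07 and 0.07 in replicate 4, -0.06 and 0.06 in replicate 3, and -0.06 and 0.08 in replicate 2. Single genes of the 42 ran from -0.18 for Nhp2 to 0.05 for Wdr12 in replicate 2. With scaling by total counts, the median of the 42 was 0.01 in replicate 4, 0.00 in replicate 3 and -0.03 in replicate 2. Medians over all genes tested were then -0.02, 0.00 and 0.02. By medians, the 42 thus stood to the other genes much as under TMM. The count of genes above their own mean depended on the scaling. With total counts it was 23 of 42 in replicate 4, 19 in replicate 3 and 15 in replicate 2. The summed level of the 5 dividing-cell markers was 10.4 TPM in replicate 4, 9.07 TPM in replicate 3 and 13.0 TPM in replicate 2. Total counts were lowest in replicate 4. The part of depth or of dividing cells in the displacement was not tested.

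The same pathway outside the 42 genes was read through 7 lists with 144 genes. Of these, 143 were detected, against 46.1% of protein-coding genes, and 142 had enough counts to be tested. The edgeR test called 0 of the 142 as varying among libraries, against 0.533% of all genes tested. None of the 142 had an unadjusted p under 0.05 in that test, against 4.10% of all genes tested. The median level of the 143 was 47.7 TPM, against 81.6 TPM for the 42, and 40.4 against 58.8 TPM with the principal length. The remaining and shared subunits of RNA polymerase I had a median of 48.5 TPM over 9 genes. They were led by Polr2f at 123 ± 10.6 TPM (SD, n = 3), Znrd1 at 117 ± 0.637 TPM and Polr2e at 93.0 ± 2.83 TPM, with Polr2l lowest at 14.2 ± 2.15 TPM. Znrd1 encodes a small subunit particular to RNA polymerase I, and the other 3 encode subunits that all 3 nuclear RNA polymerases use. With the principal length Polr2f was at 47.8 TPM, and Polr2e at 138 TPM and Polr1d at 123 TPM led the list.

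Promoter selectivity and termination factors had a median of 39.0 TPM over 6 genes. Taf1c and Taf1b, subunits of the selectivity factor SL1, were at 99.3 ± 5.88 and 55.8 ± 2.42 TPM, the termination factor gene Ttf1 at 42.1 ± 0.396 TPM, and Tbp, the TATA-binding protein gene used by all 3 polymerases, at 8.26 ± 0.299 TPM. This order did not hold with the principal length, which put Taf1d highest at 126 TPM (25.4 TPM with merged exons), Taf1c at 68.1 TPM, Tbp at 37.2 TPM and Taf1b lowest at 32.4 TPM. Tbp has 13399 merged exon bases. RNA polymerase III and its factors, which make transfer RNA and the smallest rRNA, had a median of 42.5 TPM over 20 genes. The highest of these was Maf1, the repressor of RNA polymerase III, at 269 ± 12.5 TPM, followed by the initiation factor gene Brf1 at 210 ± 6.16 TPM and Polr3c at 87.1 ± 2.33 TPM. Polr3g, which encodes one form of an RNA polymerase III subunit, was the lowest at 9.57 ± 0.792 TPM. Maf1 and Brf1 also led with the principal length, at 250 and 141 TPM, followed by Gtf3a at 114 TPM.

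Assembly factors of snoRNPs had a median of 24.6 TPM over 10 genes. The ATPase genes Ruvbl2 and Ruvbl1 were at 91.2 ± 2.41 and 36.3 ± 1.10 TPM, Pih1d1, of the R2TP complex that carries both, at 58.2 ± 1.79 TPM, and Shq1, a chaperone of dyskerin, at 4.97 ± 0.278 TPM. The principal length kept Ruvbl2 highest, at 91.8 TPM, and put Shq1 at 11.1 TPM and Naf1 lowest at 4.81 TPM. Other small subunit factors had a median of 53.0 TPM over 37 genes, led by the rRNA methyltransferase gene Emg1 at 160 ± 4.15 TPM, Wdr46 at 123 ± 2.45 TPM and the GTPase gene Bms1 at 106 ± 1.02 TPM. Utp14b was the lowest of them at 2.71 ± 0.320 TPM. Emg1 and Utp14b kept these places with the principal length, at 455 and 3.59 TPM, with Ddx47 at 145 TPM and Nob1 at 91.4 TPM next after Emg1. Other large subunit factors had a median of 51.7 TPM over 42 genes, led by Noc2l at 273 ± 7.53 TPM, the helicase gene Ddx24 at 176 ± 5.18 TPM and Rsl1d1 at 140 ± 4.94 TPM, with Tma16 lowest at 4.87 ± 0.575 TPM. Noc2l and Tma16 were likewise highest and lowest with the principal length, at 179 and 5.47 TPM, and Eif6 at 153 TPM and Ppan at 124 TPM came after Noc2l. The exosome and trimming enzymes had a median of 28.6 TPM over 19 genes. Their highest with merged exons were the exonuclease genes Xrn2, at 136 ± 6.39 TPM, and Exosc10, at 133 ± 3.33 TPM, and the helicase gene Mtrex at 94.2 ± 1.04 TPM. With the principal length Exosc8 led at 140 TPM, followed by Exosc5 at 133 TPM (33.9 TPM with merged exons), and Exosc10, Xrn2 and Mtrex were at 109, 100.4 and 53.7 TPM. Rmrp, which encodes the RNA of an RNA-cutting enzyme and no protein, was the lowest of the 19 at 1.82 ± 0.859 TPM. It had only 4, 7 and 6 counts in replicates 2, 3 and 4, too few for the edgeR test. Whether a library protocol for poly(A) RNA captured Rmrp as it did the mRNAs was not tested. Exosc6 had 0 counts in all 3 libraries, but 100% of its exon bases are shared with Aars on the same strand, so its pairs could not be assigned, its level is unknown and it is left out of the medians.

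**Figure D4:**
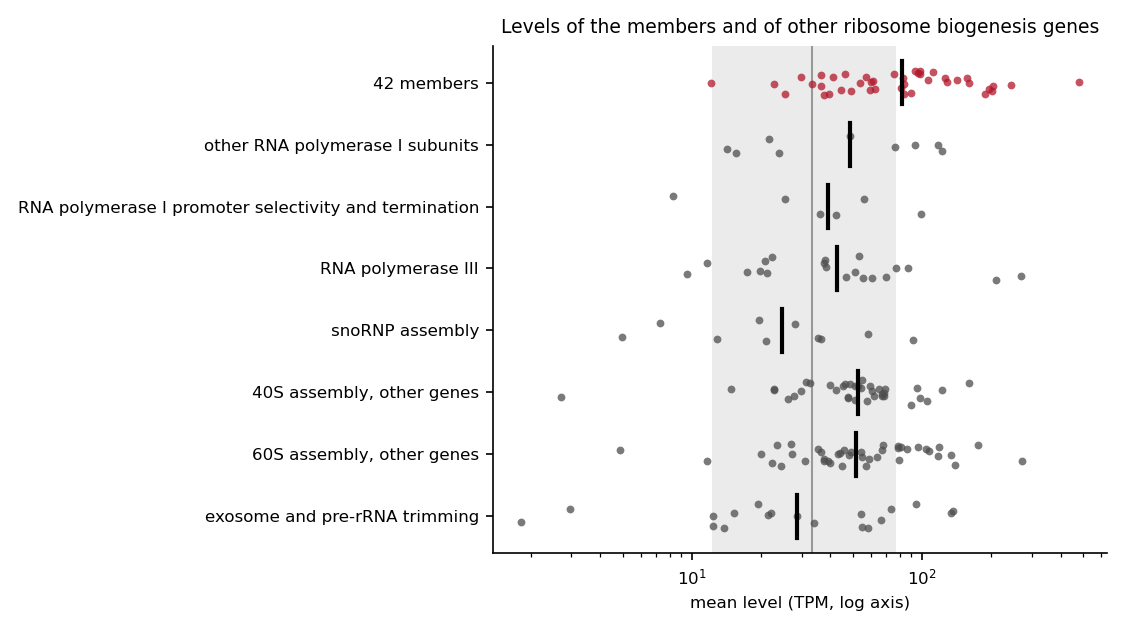
Mean level of each gene (TPM, log axis) in the 42 genes, at the top, and in 7 lists of other ribosome biogenesis genes. Each point is 1 gene, the black bar is the median of its row and the grey band and line mark the 25th to 75th percentile and the median of the detected protein-coding genes. Exosc6, whose pairs could not be assigned, is left out. The 42 genes have a median of 81.6 TPM and the lists medians between 24.6 and 53.0 TPM.

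Many genes of ribosome biogenesis carry the E-box CACGTG, the letters that MYC with MAX and several other helix-loop-helix factors can bind, near their start. RefSeq promoter windows on GRCm38.p6, from 250 bases before to 50 bases after the annotated start, were at hand for 37 of the 42 genes. The palindrome CACGTG, which reads alike on both strands, was present in 8 of the 37 windows (21.6%), in 991 of the 8045 windows of detected protein-coding genes (12.3%) and in 2187 of all 27025 windows (8.09%). Rrn3 held it at positions -215 and -48 from its start, and the other 7 genes held it once. Nop2, the cytosine methyltransferase gene, and Imp4 held it before the start and Utp4, Utp20, Pes1, Mybbp1a and Wdr43 after it. No binding was measured, and a match of letters does not show a site in use. The windows below, with the E-box in capitals and its first base counted from the start site, show how close to the start the matches lie.
Imp4, at -121, chr1:34439696-34439725, plus strand: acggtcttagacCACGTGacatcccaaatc
Nop2, at -60, chr6:125131811-125131840, plus strand: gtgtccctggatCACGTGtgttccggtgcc
Pes1, at 3, chr11:3963965-3963994, plus strand: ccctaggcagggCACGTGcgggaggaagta
Utp4, at 16, chr8:106893643-106893672, plus strand: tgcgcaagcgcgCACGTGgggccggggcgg
Wdr43, at 18, chr17:71616220-71616249, plus strand: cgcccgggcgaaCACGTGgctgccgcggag
Utp20, at 38, chr10:88826765-88826789, minus strand: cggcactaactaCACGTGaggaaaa
Mybbp1a, at 41, chr11:72441355-72441376, plus strand: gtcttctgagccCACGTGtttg
The whole stretch of 250 bases before the start of Rrn3 is given because it holds both of its E-boxes, in capitals.
Rrn3, chr16:13780449-13780698, plus strand: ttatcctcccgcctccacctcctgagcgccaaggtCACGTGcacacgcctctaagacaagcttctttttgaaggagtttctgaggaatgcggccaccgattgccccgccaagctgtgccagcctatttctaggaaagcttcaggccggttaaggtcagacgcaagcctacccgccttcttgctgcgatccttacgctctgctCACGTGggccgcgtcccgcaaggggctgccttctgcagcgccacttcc
The 8 genes with an E-box ranged from 37.5 TPM (Utp20) to 202 TPM (Mybbp1a), within the span of the other members.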

How the data were processed

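Gene tables of 3 T cell libraries were used as deposited. Per the file headers, the authors counted read pairs with featureCounts 1.4.6-p4 over exons grouped by gene of GENCODE vM13 on mm10, reverse strand, both ends aligned, with no option for pairs that map to several places or touch 2 genes. Alignment names carry the word star, but its version is not given in sources used here. Deposited values are raw counts and a merged exon length per gene. From these, TPM were computed. Symbols came from the given name table (50376 of 50600 genes matched). Detection meant 1 TPM or more in every library. Differences among replicates were tested with edgeR 4.0.16 (R 4.3.3) as goodness of fit to a model with an intercept alone, with TMM factors of 0.988 to 1.01 and trended dispersion, on the 13498 genes whose mean count was at least 10, after the code was tested on simulated data. Pairs within complexes, and the pairs Ubtf with Rrn3 and Npm1 with Ncl, used log2(TPM + 0.1) and an exact sign-flip permutation test. Ratios are of pooled counts over length, with 95% exact binomial intervals.

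Members, complexes and lists were chosen with earlier results of these data known. All 42 members are named, and of each list the 3 highest and the lowest by mean TPM. Genes named because they lead or end a list with the principal length were chosen after their values were seen. The principal lengths (shortest APPRIS principal transcript, GENCODE M21) were added after seeing the data. Pseudogene copies were found with BLAST 2.17.0 (at least 300 bases at 90% identity). Python 3.11.15 was used with pandas 2.3.3, scipy 1.17.1, numpy 2.4.6 and matplotlib 3.10.9. Promoter windows are from RefSeq (GRCm38.p6).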

Additional observations from a re-analysis of the deposited data

How the results depend on the processing

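Detection of all 42 genes held at 0.5 and 5 TPM, without each replicate and with both other lengths. The median level of 80.5 TPM was 86.9 TPM over protein-coding genes alone, 83.4 TPM without genes under 200 bases, 59.4 TPM with the principal length and 52.0 TPM with the coding length, and 79.6 to 81.8 TPM with one replicate left out. No member was called as varying among libraries under any of the scalings, count minimums, dispersions or left-out replicates tried. The smallest member p of the edgeR test there was between 0.064 and 0.20. The count over all genes, 72, was 312 when a common dispersion was used, and leaving out replicate 2, 3 or 4 gave 35, 39 or 46. All 33 pairs kept 1 sign in every library under each alternative except the principal length (32 pairs). Pairs that turned round did so with the principal length (Heatr1 over Utp4 at -0.22, Utp15 over Wdr75 at -0.40) or the coding length (Polr1b over Polr1e at -0.17, Heatr1 over Utp4 at -0.26, Heatr1 over Utp15 at -0.51, Utp4 over Utp15 at -0.24, Imp3 over Imp4 at -0.29). The pathway lists had 138 of 144 genes detected at 5 TPM. No paired analysis was possible because the libraries form 1 group. Counts limit little here, since the lowest member count in a library was 520. The main limits are exon length, which sets the order of several subunits, and that 1 group was analysed here.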
